A study of Mus musculus with 16 samples.

Results

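The Zscan4-linked genes are a set of transcripts known from the 2-cell mouse embryo. The set has 10 genes: Zscan4c, Zscan4d and Zscan4f, which encode zinc finger proteins, Tcstv1 and Tcstv3, named for variable transcripts of the 2-cell stage, and AF067061, BB287469, Gm4340, Gm2022 and Gm20767. They were chosen as genes that fell in TKO cells and rose in 3B3-3l cells when serum was replaced by 2i, so their values in those lines are given as a description, with no test. The rule did not use the response of J1 cells, which was tested, although earlier results of these data, J1 included, were known when the set was proposed. All non-control probes whose RefSeq transcript belongs to the set were used, which gave 14 probes of 9 genes out of 27126 probes tested, which covered 13917 named genes. Zscan4d had no probe by its own accession. Zscan4c had 3 probes, AF067061, BB287469 and Gm2022 had 2 each and the other 5 genes 1 each, and all 14 probes passed the filter on dim probes. The 3 Zscan4 genes lie on chromosome 7, Gm4340 on chromosome 10, BB287469 and Gm2022 on chromosome 12, and Tcstv1, Tcstv3, AF067061 and Gm20767 on chromosome 13.

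Mouse embryonic stem cells (mESCs) were profiled on 16 one-colour arrays of total RNA. J1 is the male wild-type line, of strain 129S4/SvJae, from which the other lines derive. TKO cells lack the DNA methyltransferases Dnmt1, Dnmt3a and Dnmt3b. 3B3-3l cells lack the endogenous Dnmt3a and Dnmt3b genes, and they express introduced Dnmt3b and Dnmt3l constitutively. There were 4 arrays of J1-serum, 3 each of J1-2i and TKO-2i, and 2 each of the TKO-serum, 3B3-3l-serum and 3B3-3l-2i groups. Serum cultures had LIF at 500 U/ml, and 2i cultures had the MEK inhibitor PD0325901 at 1 µM, the GSK3 inhibitor CHIR99021 at 3 µM and LIF at 1000 U/ml for 2 weeks. Per the study's methods, J1 cells had a layer of SNLP feeder cells when kept in serum, and TKO and 3B3-3l cells had none. The study names gelatin as the substrate of its cultures in general terms, without naming J1-2i, so in J1 the effects of the medium and of any change in feeder cells cannot be told apart. The labels do not say whether replicates were separate cultures, so p-values measure the spread between these arrays, which may be technical.

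As background, the zygotic genome of the mouse is first transcribed broadly at the 2-cell stage, and Zscan4 and its companions belong to that wave. In mESC cultures a small and changing fraction of cells re-enters such a state for a short time, and Zscan4 is the usual marker of these cells and is known for its part in telomere maintenance. The homeobox factor Dux activates many of these genes, Dppa2 and Dppa4 act upstream of it, and chromatin regulators such as Kdm1a, Trim28 and Ehmt2 hold them down.

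Values are log2 signals relative to the 75th percentile of the same array, and they compare groups for 1 probe, not probes with each other. That percentile was 1019 to 1797 intensity units, and 39.7% to 49.0% of spots per array were well above background, the scanner software's flag for a spot that stands clear of its local background. The 10 stem cell markers examined were all well above background on all 16 arrays, but Dppa5a was saturated on all 16, Zfp42 on 12, Pou5f1 on 11 and Nanog on 7, so neither their sum nor the changes of these 4 are read. Of 12 fibroblast markers, 9 were tested, and their log2 summed signal lay between 5.45 and 5.77 in J1-serum, 0.83 and 1.04 in J1-2i, 3.51 and 3.58 in TKO-serum, 1.19 and 1.45 in TKO-2i, 5.19 and 5.21 in 3B3-3l-serum and 1.73 and 1.77 in 3B3-3l-2i. Of these 9, 7 were well above background on both TKO-serum arrays and 7 on both 3B3-3l-serum arrays, and Dcn and Pdgfrb on none of those arrays. The arrays lay on 3 slides. Slides 1 and 2 held J1 and TKO arrays of both media, except that TKO-serum was on slide 1 only, and slide 3 held all 3B3-3l arrays with J1-serum replicate 1.

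In J1 cells the whole set was lower in 2i. All 14 probes, and with them 9 of 9 genes, were called lower in J1-2i than in J1-serum, with a limma adjusted p no higher than 0.05 and at least a 2-fold change, where 11.2% of 27082 probes with values in both groups and 12.6% of all genes were called lower. The log2 differences ran from -2.47 to -1.66, which is 3.17- to 5.56-fold, and the largest adjusted p over the 14 probes was 6.66e-05. The median over the 9 genes, 1 probe each, was -2.11, beside a median of 0.04 over all probes. Without Tcstv1, for which only a bound holds, the other 8 genes ranked between 549 and 1026 of 13917 genes by the size of their fall. No probe of the set overlapped between the J1 groups, and 28.3% of all genes were lower in J1-2i with no overlap. The share lower in J1-2i among genes lower in TKO-2i, on which the set was chosen, was not computed.

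Zscan4f read 3.95, 3.93, 4.25 and 4.04 on the 4 J1-serum arrays and 1.93, 1.82 and 2.04 on the 3 J1-2i arrays. The lowest serum array thus lay well over the highest 2i array. The difference was -2.11 ± 0.13 (SE), with an adjusted p of 4.04e-08. Zscan4c read 2.04, 1.65, 2.04 and 1.87 in J1-serum against -0.31, -0.10 and -0.24 in J1-2i, with the probe of the highest mean over all 16 arrays. Its 3 probes gave differences of -2.11, -2.20 and -2.10, closer to each other than their standard errors of 0.13 to 0.19.

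Tcstv1 read -0.69, -0.07, 0.36 and -0.11 in J1-serum and -2.58, -2.56 and -2.66 in J1-2i, where it was not well above background on any array. Its signal in J1-serum was therefore at least 5.56-fold higher, with an adjusted p of 1.84e-06. Tcstv3 read 0.22, -0.08, 0.13 and 0.00 in J1-serum and -2.41, -2.07 and -2.14 in J1-2i, a difference of -2.28 ± 0.23 (SE, adjusted p = 2.97e-06). Tcstv3 stayed well above background on 2 of 3 J1-2i arrays.

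AF067061 fell from between 3.00 and 3.35 in J1-serum to between 0.82 and 1.00 in J1-2i (difference -2.25 ± 0.11, adjusted p = 3.44e-09). Gm20767 fell from between 2.22 and 2.39 to between -0.11 and 0.05 (difference -2.33 ± 0.10, adjusted p = 1.47e-09). BB287469 and Gm2022, which encode proteins related to the translation initiation factor eIF1A, differed by -1.89 ± 0.22 and -1.95 ± 0.14. Gm4340 had the smallest difference of the set, -1.66 ± 0.10, with 3.96 to 4.29 in J1-serum and 2.37 to 2.46 in J1-2i.

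The fall in J1 was also seen within slides. On slide 1, with 2 arrays of each medium, the median over the 9 genes was -2.23, and on slide 2, with 1 array of each, it was -1.99. Each of the 9 genes was lower in J1-2i on both slides, with values between -2.75 and -1.54. Beside this, 9 of 9 fibroblast markers were called lower in J1-2i, by a median of -4.29, as were 5 of 9 in TKO-2i and 4 of 9 in 3B3-3l-2i, where 1 was higher. The part of feeder cells in the J1 values was not tested. In RNA from whole cultures, fewer cells in a 2-cell-like state and less RNA per such cell cannot be told apart.

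**Figure D1:**
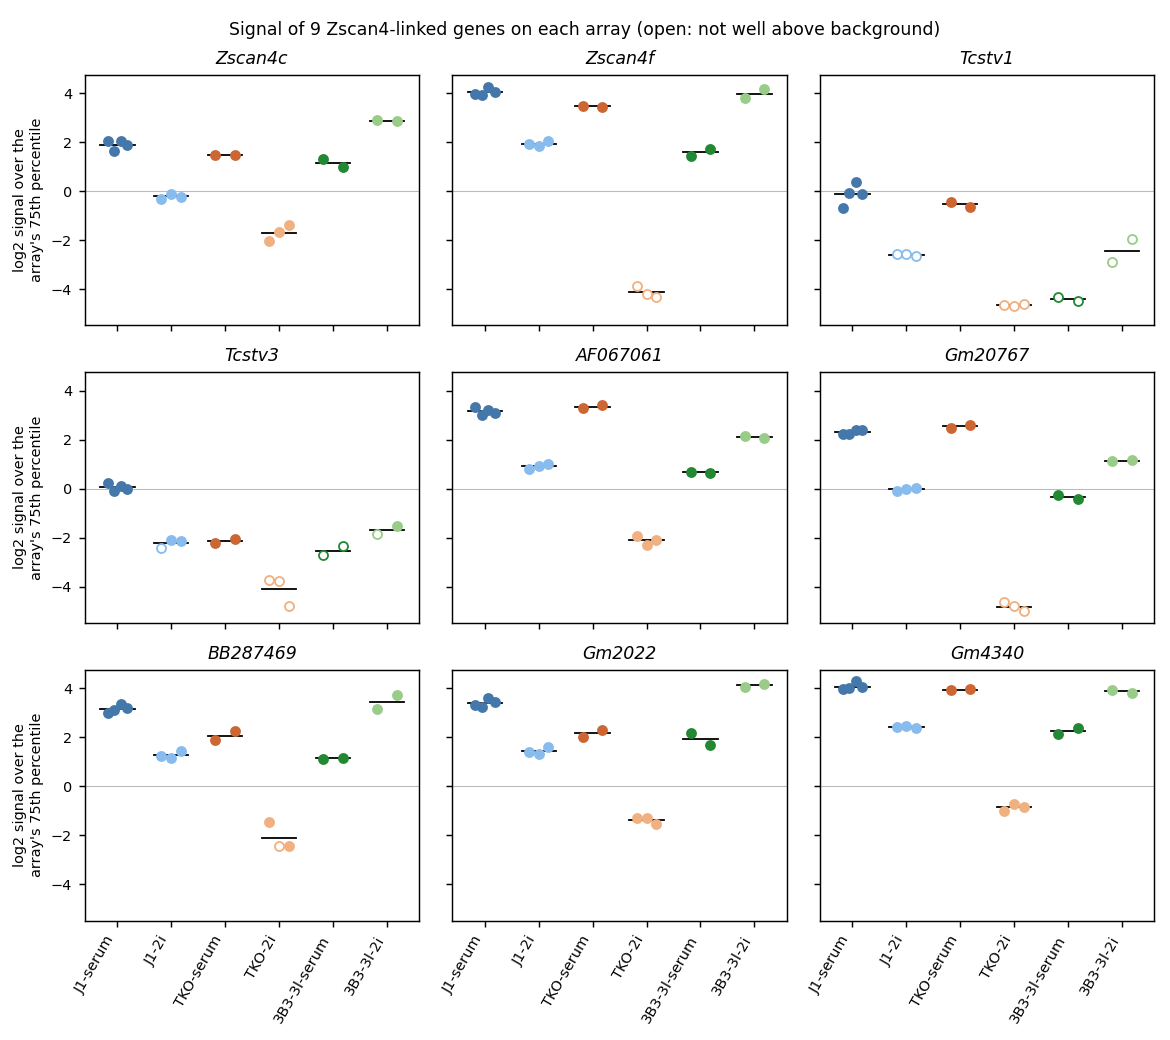
Log2 signal relative to the array's 75th percentile (vertical axis) of 9 Zscan4-linked genes in the 6 groups (horizontal axis), 1 probe per gene. Each point is an array, open where the probe was not well above background, and lines are group means. In every panel the J1-2i arrays lie under the J1-serum arrays, the TKO-2i arrays under the TKO-serum arrays and the 3B3-3l-2i arrays over the 3B3-3l-serum arrays.

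In TKO cells, where the set was chosen for its fall, all 14 probes had a lower mean in 2i. The fitted differences between TKO-2i and TKO-serum ran from -7.59 for Zscan4f to -1.94 for Tcstv3, with a median of -4.17 over the 9 genes, and 4 of the 9 have only a bound. Across all genes 9.05% were called lower in TKO-2i. Zscan4f read 3.47 and 3.44 in TKO-serum and -3.89, -4.18 and -4.34 in TKO-2i, where no array was well above background, so it was at least 112-fold lower. Gm20767 read 2.48 and 2.60 in TKO-serum and -4.64, -4.79 and -5.01 in TKO-2i, at least 59.2-fold lower. Tcstv1 was at least 7.0-fold lower and Tcstv3 at least 2.29-fold lower, both with no TKO-2i array well above background.

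The other 5 genes kept a signal on at least 2 of 3 TKO-2i arrays with the probe used. AF067061 read -1.94, -2.29 and -2.08 in TKO-2i against 3.29 and 3.40 in TKO-serum, a difference of -5.45 ± 0.13 (SE). Gm4340 went from 3.94 and 3.96 to -1.01, -0.70 and -0.83, a difference of -4.80 ± 0.12. BB287469 differed by -4.17 ± 0.27, Gm2022 by -3.54 ± 0.17 and Zscan4c by -3.16 ± 0.18. Probes of 1 gene disagreed here. The Zscan4c probe used read between -2.05 and -1.38 in TKO-2i and was well above background on all 3 arrays, whereas the other 2 probes of Zscan4c read between -4.88 and -4.46 and were not well above background on any. The second probes of AF067061, BB287469 and Gm2022 were likewise not well above background on any TKO-2i array, so that 9 of the 14 probes have only a bound in TKO.

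In 3B3-3l cells, where the set was chosen for its rise, all 14 probes had a higher mean in 2i. The fitted differences between 3B3-3l-2i and 3B3-3l-serum ran from 0.84 to 3.08, with a median of 1.74 over the 9 genes, and 5.60% of all genes were called higher. The set was chosen on this contrast, so nothing is read from how many of its genes passed the threshold. Zscan4f read 1.45 and 1.71 in 3B3-3l-serum and 3.80 and 4.15 in 3B3-3l-2i, a difference of 2.40 ± 0.17 (SE). Zscan4c read 1.30 and 0.97 in serum and 2.88 and 2.87 in 2i, the highest level of this probe in the 6 groups. Another of its probes had about the same mean in 3B3-3l-2i (1.99) and J1-serum (1.98). Gm2022 read 2.20 and 1.69 in serum and 4.05 and 4.19 in 2i. BB287469 read 1.13 and 1.17 in serum and 3.17 and 3.73 in 2i.

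The Tcstv genes were the weak cases in 3B3-3l. Tcstv3, the gene just outside the threshold, read -2.72 and -2.35 in serum and -1.85 and -1.54 in 2i, and only 1 of these 4 arrays was well above background. Its fitted difference of 0.84 ± 0.30 was under 2-fold. Tcstv1 read -4.34 and -4.48 in serum and -2.91 and -1.95 in 2i, with none of the 4 arrays well above background, so no fold is given. Of the genes past the threshold with a signal in both media, AF067061 was the nearest to it, at 1.44 ± 0.14, followed by Gm20767 at 1.48 ± 0.13.

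**Figure D2:**
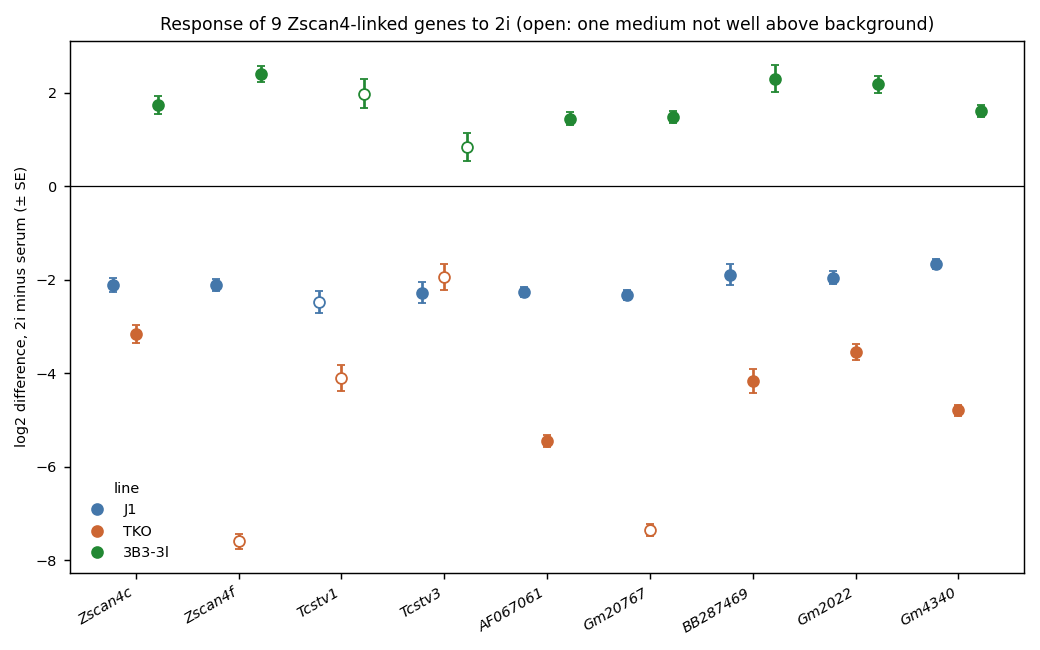
Log2 difference between 2i and serum (vertical axis, point and SE from 1 fit of all 16 arrays) for 9 Zscan4-linked genes (horizontal axis) in J1, TKO and 3B3-3l, with open points where the probe was not well above background on any array of at least 1 of the media. J1 points lie between -2.47 and -1.66, TKO points between -7.59 and -1.94, and 3B3-3l points between 0.84 and 2.40; the set was chosen on the signs in TKO and 3B3-3l.

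Between lines, the groups fell in different orders in the different media. Averaged over the 9 genes after centring each gene, the set stood at 1.82 ± 0.13 (SD, n = 4) in J1-serum, 1.31 ± 0.17 (n = 2) in 3B3-3l-2i, 1.19 ± 0.06 (n = 2) in TKO-serum, -0.30 ± 0.06 (n = 3) in J1-2i, -0.46 ± 0.02 (n = 2) in 3B3-3l-serum and -3.49 ± 0.13 (n = 3) in TKO-2i. These means include genes that were not well above background, 4 of the 9 in TKO-2i among them. J1-2i and 3B3-3l-serum have no settled order, since without Tcstv1, not well above background in either, they stood at -0.30 ± 0.07 and -0.26 ± 0.01. The arrays of 3B3-3l-2i and TKO-serum, neighbours in this order, ranged from 1.19 to 1.44 and from 1.14 to 1.23. Single genes differed between these groups in both directions: the mean of Gm2022 was 4.12 in 3B3-3l-2i and 2.17 in TKO-serum, and that of Gm20767 was 1.15 and 2.54. The 3 lines share no arrays, but the comparisons of TKO and 3B3-3l with J1 in 1 medium share the J1 arrays.

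In serum the genes of the set differed in how TKO stood to J1. Gm20767 and AF067061 were higher in TKO-serum by 0.24 ± 0.11 and 0.18 ± 0.12 (SE), and Gm4340 differed by -0.13 ± 0.12. The arrays of AF067061, Gm4340 and Tcstv1 overlapped between these groups. At the other end, Tcstv3 was lower in TKO-serum by -2.22 ± 0.26, Gm2022 by -1.23 ± 0.16 and BB287469 by -1.10 ± 0.25. The median over the 9 genes was -0.43. In 2i, 8 of 9 genes were lower in TKO than in J1 with no overlap, while Tcstv1 was not well above background in either group. The fitted median over the 9 was -3.01, where 25.1% of all genes were lower in TKO-2i with no overlap. Zscan4f was at least 38.9-fold lower in TKO-2i than in J1-2i.

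In 3B3-3l cells the order of the media was the reverse of that in J1. In serum all 9 genes were lower in 3B3-3l than in J1, by a fitted median of -2.47, or -2.29 with Tcstv1 and Tcstv3 at their bounds. In 2i 8 had a higher mean, not counting Tcstv1, and the fitted median over the 9 was 1.46. Zscan4c was lower by -0.76 ± 0.17 in serum and higher by 3.09 ± 0.18 in 2i. AF067061 was lower by -2.49 ± 0.12 in serum and higher by 1.21 ± 0.13 in 2i. Tcstv1 was at least 4.88-fold lower in 3B3-3l-serum than in J1-serum, and in 2i, where neither line was well above background, its arrays overlapped. All 3B3-3l arrays lay on slide 3 with 1 J1 array. With slide as a block, the median difference from J1 in 2i was 1.62 and that in serum -2.37. The part of slide, like that of the feeder cells under J1-serum, was not tested.

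Promoters of 6 of the 10 genes were found in the RefSeq table, as windows of 250 bases before to 50 bases after the transcription start in build GRCm38.p6. The array's own grid refers to mm9, so these coordinates place the promoters and not the probes. Zscan4c, AF067061, BB287469 and Gm4340 are shown, 1 for each of the chromosomes 7, 13, 12 and 10, because genes on 4 chromosomes moved together. Capitals mark TGATTNAAT on either strand, which is the first 9 letters of the Dux motif. This shorter motif was chosen after the sequences were seen.

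Zscan4c, chr7:11005495-11005794, plus strand: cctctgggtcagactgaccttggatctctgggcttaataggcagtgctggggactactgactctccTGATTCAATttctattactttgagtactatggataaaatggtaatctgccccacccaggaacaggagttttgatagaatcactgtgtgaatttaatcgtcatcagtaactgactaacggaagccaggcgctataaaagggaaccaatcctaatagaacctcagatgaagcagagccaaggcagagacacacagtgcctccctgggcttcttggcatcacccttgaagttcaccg

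AF067061, chr13:120262845-120263144, plus strand: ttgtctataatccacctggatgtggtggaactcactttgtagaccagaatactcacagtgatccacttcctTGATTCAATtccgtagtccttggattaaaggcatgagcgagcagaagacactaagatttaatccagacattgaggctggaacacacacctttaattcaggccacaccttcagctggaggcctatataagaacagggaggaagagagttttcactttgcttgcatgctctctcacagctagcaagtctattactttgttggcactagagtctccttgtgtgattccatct

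BB287469, chr12:87816327-87816626, plus strand: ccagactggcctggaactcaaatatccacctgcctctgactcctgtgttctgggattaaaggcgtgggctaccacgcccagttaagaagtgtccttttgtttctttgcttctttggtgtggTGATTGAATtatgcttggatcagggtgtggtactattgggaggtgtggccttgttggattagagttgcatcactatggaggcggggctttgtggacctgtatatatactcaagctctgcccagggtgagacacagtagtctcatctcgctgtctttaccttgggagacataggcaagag

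Gm4340, chr10:104193792-104194091, plus strand: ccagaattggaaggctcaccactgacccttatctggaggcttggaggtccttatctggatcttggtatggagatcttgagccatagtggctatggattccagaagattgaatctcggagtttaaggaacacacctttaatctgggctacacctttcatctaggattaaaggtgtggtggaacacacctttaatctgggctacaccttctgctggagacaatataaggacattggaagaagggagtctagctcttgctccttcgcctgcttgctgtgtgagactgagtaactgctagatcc

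The full Dux motif was in none of the 6 promoters and in 0.0335% of all 32851 promoters of the table. The shorter TGATTNAAT, searched on both strands, was in 4 of the 6, those of Zscan4c, Zscan4f, AF067061 and BB287469, and in 0.718% of all promoters. In Zscan4c, Zscan4f and AF067061 its letters were TGATTCAAT and began 184, 161 and 179 bases before the start. In BB287469 they were TGATTGAAT, 129 bases before it. CCAAT, the NF-Y motif, was in 5 of the 6 and in 37.4% of all promoters. Neither TGCACAC, a motif of Zscan4 itself, nor the E-box CACGTG was in any of the 6, beside 4.40% and 7.15% of all promoters. TATAAA, also added after the sequences were seen, was in the 3 Zscan4 promoters, beside 13.6% of all.

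The Zscan4 promoters are near copies of each other. Promoters were aligned with overhanging ends free, and identity is over aligned bases only, with gaps left out. Zscan4c and Zscan4f were identical at 275 of 277 aligned bases (99.3%), Zscan4c and Zscan4d at 281 of 289 (97.2%) and Zscan4d and Zscan4f at 259 of 266 (97.4%). Zscan4d lies on the minus strand at chr7:11166099-11166398 and lacks the shorter Dux motif. Between the 4 promoters printed, identity in such alignments was between 62.5% and 70.0%. Identity between unrelated promoters was not computed, so no similarity is read from that range. Whether probes of near-identical transcripts share signal was not tested, so the values of Zscan4c and Zscan4f, like those of other multicopy genes of the set, may not be of 1 locus each.

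Across the 16 arrays the genes of the set rose and fell together, which their choice in part fixes. Pearson's r of the 36 gene pairs ran from 0.65 to 0.99 with a median of 0.90, as a description over arrays that share the 6 groups. The highest was 0.99, between Zscan4f and Gm4340, on different chromosomes, and the lowest 0.65, between Zscan4c and Tcstv1. Once each gene's group means were removed, r ran from -0.55 to 0.82 with a median of 0.22 and was above 0 in 26 of 36 pairs. The highest such value, 0.82, joined Zscan4f and BB287469, and the lowest, -0.55, Zscan4c and BB287469. J1-serum replicate 3 was above its group mean for 9 of 9 genes, by 0.19 on average, and J1-serum replicate 2 under it for 8 of 9, by -0.11 on average. Both shifts were small beside the fall of the set in J1-2i.

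**Figure D3:**
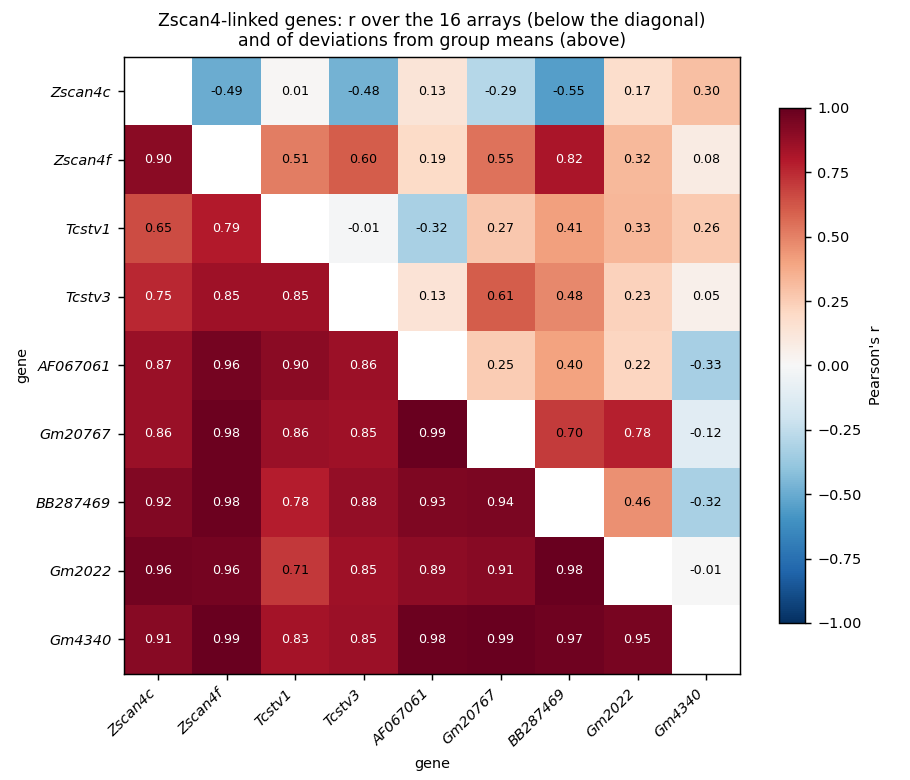
Pearson's r between 9 Zscan4-linked genes (both axes) over the 16 arrays (below the diagonal) and of their deviations from the group means (above the diagonal). Values below the diagonal run from 0.65 to 0.99, and those above it from -0.55 to 0.82.

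The genes outside the set whose pattern was most like it were found by r with the mean of the centred set over the 16 arrays, among 13619 other named genes with complete values. The first 5 were Gm4312 (r = 0.991), Zscan4b (0.987), Gm8300 (0.977), Gm21319 (0.974) and Gm4303 (0.968). They were followed by Pramel39 (0.954), Rnf17 (0.948), BC147527 (0.947), Ppme1 (0.945) and Gm13043 (0.941). A high r does not need a large change: Ppme1 differed by -0.30, -0.53 and 0.22 in J1, TKO and 3B3-3l. Over all genes, 45 (0.323%) were called lower in TKO-2i and higher in 3B3-3l-2i, of which 8 are in the set and 37 are not. Of those 37, 28 were also called lower in J1-2i and 1, Dleu7, was called higher, where 12.6% of all genes were called lower in J1-2i. The share among all genes lower in TKO-2i, on which the 37 were picked, was not computed, so nothing is read from the 28. Foxa1, Stra8 and Irf5, named here after their values were seen, are among the 37.

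Genes next to the set did not all move with it. Among the 10 gene models on each side of each gene of the set, 11 other genes were tested, of which 3 were called lower in J1-2i, 3 lower in TKO-2i and 3 higher in 3B3-3l-2i, beside 12.6%, 9.05% and 5.60% of all genes. Of the 11, 4 are on the list of 2-cell genes described next, among them Zscan4b and Gm21319. Zscan4b on chromosome 7 and Gm21319 on chromosome 12 did all of these, and BC147527 on chromosome 13 fell in J1 and TKO, by -1.10 and -1.82, and differed by 0.50 in 3B3-3l. Close by on chromosome 13, AF067063 differed by 0.75, 0.23 and -0.32 and was not called in any line. Slc6a15 on chromosome 10 rose in J1, by 1.37, and fell in 3B3-3l, by -1.25.

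A list of 66 other genes known from 2-cell embryos or 2-cell-like cells, or of the same families, was then examined. On the array 37 had a probe, and 24 were tested. The list holds genes of the same families as the set, such as Zscan4a and Zscan4b. Whether their probes share signal with those of the set was not tested. The counts below are therefore no independent support for the set. In J1-2i 11 of 24 were called lower by limma and none higher, beside 12.6% of all genes called lower, and 3 were higher at an unadjusted p of at most 0.05. In TKO-2i 10 were lower and 1 higher (9.05% of all genes lower and 6.70% higher), and in 3B3-3l-2i 9 were higher and none lower (5.60% of all genes higher), with 4 lower at an unadjusted p of at most 0.05. Shares of all genes at the unadjusted limit were not computed. The median of the 24 genes was -0.77 in J1, -0.63 in TKO and 0.37 in 3B3-3l. The difference between responses was itself past the threshold for 11 of 24 genes, more positive in 3B3-3l than in J1 (8.60% of all genes), with 1 more negative (8.57%), and for 7 of 24, more negative in TKO than in J1 (7.49% of all genes). Where a group was not well above background these are fitted differences of uncertain size: Zscan4b, Gm21319, Gm8300, Fgf1 and Duxbl1 were so in TKO-2i, Fgf1 and Duxbl1 in J1-2i and 3B3-3l, and Ddit4l in 3B3-3l-2i. Fgf1, Duxbl1 and Ddit4l are counted in the 11 and Fgf1 in the 7, although the order of these responses is not known. The 1 more negative call, Pramel7 (-1.33), named after its values were seen, was well above background in J1 on the 2i arrays only and on no 3B3-3l array.

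Zscan4b, the paralog of the Zscan4 genes above, read between 3.33 and 3.59 in J1-serum and between 1.12 and 1.26 in J1-2i, a difference of -2.22 ± 0.10 (SE, adjusted p = 2.54e-09). In TKO-2i it was not well above background and at least 77.2-fold lower, and in 3B3-3l it rose by 2.58 ± 0.13. Zscan4a fell by -1.94 in J1 and by -2.07 in TKO, responses whose difference of -0.13 ± 0.12 did not pass the test (adjusted p = 0.504), and rose by 2.26 in 3B3-3l. Gm8300, Gm21319, Gm4312, Gm4303 and Tmem92 also fell in J1 and TKO and rose in 3B3-3l. Their falls in J1 ran from -1.98 to -1.50 and their rises in 3B3-3l from 1.28 to 2.63.

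Not every gene of the list followed this pattern. Fgf1, a fibroblast growth factor, and Duxbl1, a relative of Dux, were lower in J1-2i by at least 4.22-fold and 2.08-fold and in TKO-2i by at least 6.11-fold and 4.04-fold, and neither was well above background on any 3B3-3l array. Ddit4l fell by -1.60 in J1 and by -1.06 in TKO, where without TKO-serum replicate 1 it was -0.95 and under 2-fold. Lmx1a, a homeobox factor, was at least 2.93-fold lower in J1-2i, where 2 of 4 J1-serum arrays were well above background. Pramel6 ran the other way in TKO, where it was at least 3.92-fold higher in 2i, and it was also called higher in 3B3-3l, at least 2.02-fold and well above background on 1 of 2 arrays there. That call was lost without 3B3-3l-serum replicate 2 (limma adjusted p = 0.120) or 3B3-3l-2i replicate 1 (difference 0.73, adjusted p = 0.196). In J1, where Pramel6 differed by 0.96, it was past the threshold with quantile normalization, with array medians and in the authors' table (1.08 to 1.12) and without J1-serum replicate 2 (1.05) or 3 (1.01), and Fgf1 was called lower in 3B3-3l without 3B3-3l-2i replicate 1 (-1.29).

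Among 11 known activators of the 2-cell-like state, 9 were tested. Duxf3, the mouse Dux gene, had no tested probe. In 2i 2 were called higher in J1 and 2 in 3B3-3l, and in TKO 1 was higher and 3 were lower, beside 10.1%, 5.60%, 6.70% and 9.05% of all genes. The TKO response was more negative than that of J1 for 4 of 9 (7.49% of all genes) and the 3B3-3l response for 1 (8.57%). In serum 5 of 9 were called higher in TKO than in J1 (7.75% of all genes) and 7 of 9 higher in 3B3-3l than in J1 (9.84%), comparisons that share the J1-serum arrays. All 3B3-3l arrays lay on slide 3, with only replicate 1 of J1-serum, and the part of slide was not tested. Dppa2 read 4.17 and 4.26 in TKO-serum and 2.82, 2.86 and 2.60 in TKO-2i, a fall of -1.46 ± 0.11 (SE, adjusted p = 3.89e-07). In J1 it differed by 0.66 ± 0.09, which was under 2-fold, and the responses of TKO and J1 differed by -2.12 ± 0.14 (adjusted p = 5.12e-07). In 3B3-3l it differed by 0.31 ± 0.12, and that response lay 1.77 ± 0.16 above the TKO response (adjusted p = 1.08e-05). Its partner Dppa4 fell by -1.21 ± 0.13 in TKO and differed by -0.82 in J1 and -0.47 in 3B3-3l, and the TKO and J1 responses of Dppa4 did not differ past the test (-0.39 ± 0.17, adjusted p = 0.121). In serum Dppa2 was higher in TKO, by 2.17 ± 0.10 (adjusted p = 1.40e-08), and in 3B3-3l, by 1.94 ± 0.10, than in J1, where it read between 1.93 and 2.18.

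Tbx3, a T-box factor, rose in all 3 lines, by 2.35, 2.02 and 1.43 in J1, TKO and 3B3-3l. Tet2, which oxidises methylated cytosine, rose by 1.51 in J1 and 1.03 in 3B3-3l and differed by 0.28 in TKO, and its response in TKO was more negative than in J1 by -1.23 ± 0.21 (adjusted p = 0.000746). The difference of Tet2 in 3B3-3l was under 2-fold with the mean of all its probes (0.75), in the authors' table (0.95), with quantile normalization (0.97) and, by little, without 3B3-3l-serum replicate 2. Trp53 fell by -1.04 in TKO (adjusted p = 0.0477), with 2.98 and 1.68 on the 2 TKO-serum arrays. Without TKO-serum replicate 1 that difference was -0.39, and Trp53 no longer passed when most of the other arrays were left out 1 at a time.

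Among 23 known repressors, 22 were tested, of which 1 was called higher and 1 lower in J1 (10.1% and 12.6% of all genes), 1 higher and 1 lower in TKO (6.70% and 9.05%), and 2 lower in 3B3-3l (7.93%). Without the limits of a 2-fold change and of adjustment, at an unadjusted limma p of at most 0.05, 11 were higher and 3 lower in J1, 8 higher and 4 lower in TKO, and 3 higher and 4 lower in 3B3-3l. Kdm1a, the histone demethylase, differed by -0.30, -0.46 and 0.03 in J1, TKO and 3B3-3l, and Trim28, the corepressor of zinc finger proteins, by 0.16, -0.46 and -0.45. Lin28a, an RNA-binding protein, fell in all 3 lines, by -1.83, -1.20 and -1.21. Uhrf1, which brings Dnmt1 to replicating DNA, rose by 1.18 in J1 and 1.09 in TKO. Ehmt2, a histone H3K9 methyltransferase, fell by -1.02 in 3B3-3l and differed by -0.80 in J1, and without 3B3-3l-serum replicate 1 or 3B3-3l-2i replicate 2 the 3B3-3l value, at -0.90 and -0.94, was under 2-fold. By limma the response of none of the 22 differed past the threshold between any 2 of the lines. At an unadjusted p of at most 0.05, 6 differed between TKO and J1, 9 between 3B3-3l and J1 and 8 between 3B3-3l and TKO. For these counts too the share of all genes was not computed.

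**Figure D4:**
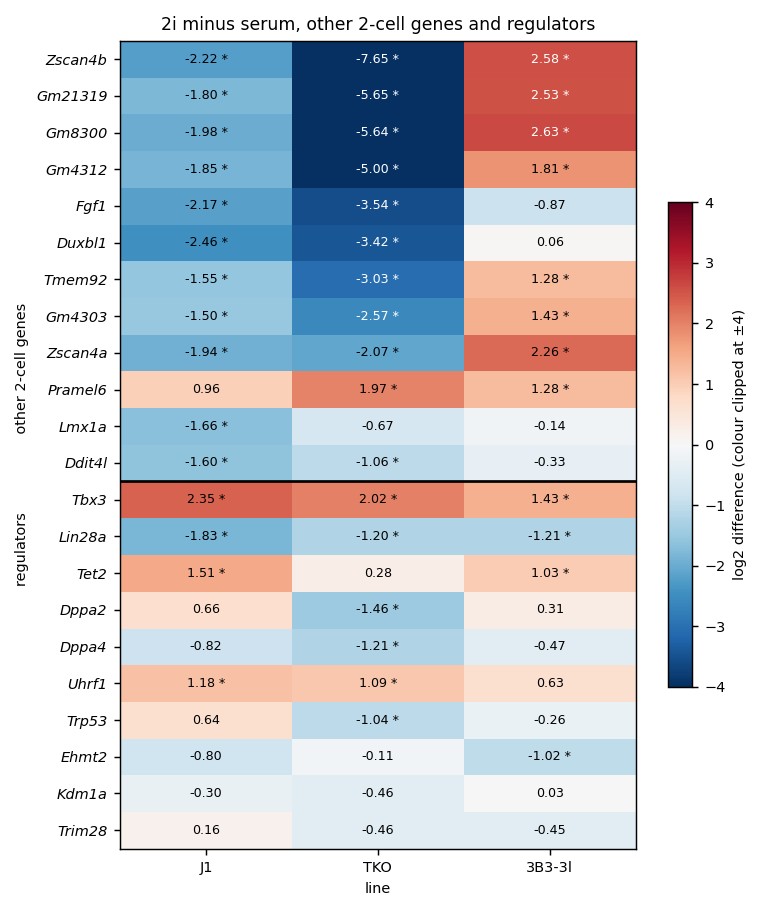
Log2 difference between 2i and serum in J1, TKO and 3B3-3l (columns) for other 2-cell genes and for regulators (rows, separated by the black line), with the value in each cell and an asterisk where it was called. Zscan4b, Gm21319, Gm8300, Gm4312, Tmem92, Gm4303 and Zscan4a are lower in J1 and TKO and higher in 3B3-3l, while Tbx3 is higher in all 3 lines.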

How the data were processed

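RNA was labelled with Cy3 and hybridised to Agilent SurePrint G3 arrays. Per the file headers, images were read with Feature Extraction 11.5.1.1, and the deposited scanner files hold each spot's processed signal as an intensity, background-subtracted and detrended, not normalized between arrays. The authors also deposited a log2 table of 30170 probes, used as an alternative: it holds 3 of the 14 probes, and 13 of its 16 columns correlated best with an array of the same group other than their namesake.

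Here log2 signals were taken relative to the array's 75th percentile. Spots with a non-uniformity or population flag were dropped, and remaining spots were averaged by probe. A probe was well above background if at least 50% of its spots were, and was tested if this held on every array of at least 1 group. Agilent identifiers were named through RefSeq accessions. One limma fit (3.58.1, R 4.3.3) of 6 group means took all 16 arrays, with two-sided tests and Benjamini-Hochberg adjustment, after being tested on simulated data. A gene was represented by its probe with the highest mean. An "at least" fold sets the bright group's mean against, per array, the higher of the dim probe's signal and the lowest signal well above background. Precision is limited by how many arrays there are. The members and gene lists were chosen with earlier results of these data known. Of each list, the genes called in any line were named, at most 12, and Dppa2, Dppa4, Duxf3, Tbx3, Kdm1a and Trim28 always.

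Alternatives were the normalization, background correction, filter, flags, probe choice, slide or replicate block, J1 arrays alone, an unpaired t-test per probe and leaving out each array. The set means without Tcstv1 and the response differences of regulators without each array were added after the data were seen. Same-numbered serum and 2i arrays of a line were compared by their deviations from group means, and r lay between -0.12 and 0.29, so numbers were not taken as pairs.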

Additional observations from a re-analysis of the deposited data

Results flagged for a closer look

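All 9 genes of the set with a probe had every J1-2i array below the J1-serum arrays and every 3B3-3l-2i array above the 3B3-3l-serum arrays. Across all genes 28.3% were lower in J1-2i with no overlap, and the share with both patterns was not computed. In 3B3-3l there were only 2 arrays of each medium, so nothing is read from this count. The difference between these responses was not tested, since the set was chosen on 3B3-3l. Tcstv1 was not well above background on any 3B3-3l array, and Tcstv3 only on 1 3B3-3l-2i array.

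For genes outside the set, differences between 2i responses passed limma's test. The values are fitted, and their size is uncertain where a group was not well above background on any array, as for Zscan4b, Gm21319, Gm8300, Fgf1 and Duxbl1 in TKO-2i, Fgf1 and Duxbl1 in J1-2i and in 3B3-3l, and Ddit4l in 3B3-3l-2i. For Fgf1 and Duxbl1 only bounds hold in J1 and TKO and no level in 3B3-3l was well above background, so their responses cannot be ordered. The fitted 3B3-3l response lay above that of J1 by 4.79 for Zscan4b, 4.62 for Gm8300, 4.33 for Gm21319 and 4.20 for Zscan4a. It did so by 3.66 for Gm4312, 2.93 for Gm4303 and 2.82 for Tmem92. The fitted value of Ddit4l was 1.27, but its fall in 3B3-3l may be larger than fitted, so its responses in J1 and 3B3-3l cannot be ordered. The fitted TKO response lay below that of J1, by -5.43 for Zscan4b, -3.86 for Gm21319, -3.66 for Gm8300, -3.14 for Gm4312, -1.49 for Tmem92 and -1.07 for Gm4303. The fitted 3B3-3l response lay above that of TKO by 10.23 for Zscan4b, 8.28 for Gm8300, 8.18 for Gm21319, 6.80 for Gm4312, 4.33 for Zscan4a, 4.31 for Tmem92 and 4.01 for Gm4303. For Fgf1 and Duxbl1 the fit gave values that are no measured differences: -1.37 (TKO minus J1), 1.30 (3B3-3l minus J1) and 2.67 (3B3-3l minus TKO) for Fgf1, and 2.52 (3B3-3l minus J1) and 3.48 (3B3-3l minus TKO) for Duxbl1.

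Among regulators, the response of Dppa2 in TKO lay below that in J1 by -2.12 and that in 3B3-3l above that in TKO by 1.77. Tet2 and Trp53 were lower in their TKO response than in J1, by -1.23 and -1.68. The Trp53 value rests on TKO-serum replicate 1, without which it was -1.03 (limma adjusted p = 0.134), and that of Tet2 ran from -1.34 to -1.12 when 1 J1 or TKO array was left out.

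In J1-serum, 4 of 31 genes had an array far from the other 3, where chance gives about 1 in 20. Zscan4b read 3.59 and Gm8300 read 2.40 on replicate 3, against at most 3.34 and 2.18 on the others. Gm21319 read 1.81 on replicate 2, against at least 1.99. Trp53 read 1.26 on replicate 1, against at most 0.19. None of the 9 genes of the set had such an array.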

How the results depend on the processing

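The J1 result kept its direction and its call in all 249 values of single genes of the set over the alternatives with a test, between -2.66 and -1.50, with a largest adjusted p of 0.00125. In TKO and 3B3-3l all 222 values each kept their sign. Leaving out 1 array at a time, the count of 9 genes stayed at 9. The medians over the set then ran from -2.20 to -2.07 in J1, -4.49 to -4.08 in TKO and 1.65 to 1.91 in 3B3-3l, and against J1 from -0.60 to -0.38 (TKO, serum), -3.10 to -2.92 (TKO, 2i), -2.50 to -2.34 (3B3-3l, serum) and 1.42 to 1.51 (3B3-3l, 2i). The calls in the 2-cell list ran from 11 to 12, 10 to 11 and 8 to 9 in J1, TKO and 3B3-3l, and those of regulators were 4 in J1, 5 to 7 in TKO and 3 to 4 in 3B3-3l.

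With quantile normalization the medians were 1.60 for the 3B3-3l response and -2.59 (serum) and 1.31 (2i) for 3B3-3l against J1. With array medians they were -1.95 in J1 and 1.87 in 3B3-3l. With normexp they were -1.88, -3.67 and 1.55 in J1, TKO and 3B3-3l, -2.51 for TKO against J1 in 2i, and -2.17 and 1.33 for 3B3-3l against J1 in serum and 2i. The authors' table holds 2 of the 9 genes by these probes, both called lower in J1. Their medians there were -2.24, -3.83 and 2.16 for the responses and -0.86, -2.44, -3.07 and 1.33 for TKO in serum, TKO in 2i, 3B3-3l in serum and 3B3-3l in 2i against J1, and 7 genes of the 2-cell list were called in TKO. Probes well above background on every array left 4 of the 9 genes, all called lower in J1, with -0.28 for TKO and -1.64 for 3B3-3l against J1 in serum and 2.07 for 3B3-3l in 2i, and the 2-cell list then had 3, 3 and 4 calls in J1, TKO and 3B3-3l. With slide as a block, TKO against J1 in serum was -0.62 and 3B3-3l against J1 in 2i 1.62. The mean of all probes of a gene gave -4.80 in TKO, 1.98 in 3B3-3l and -3.51 for TKO against J1 in 2i. Within slides the J1 median was -2.23 and -1.99. Of the 9 activators and 22 repressors tested, 18, 15 and 9 were called in J1, TKO and 3B3-3l without a fold limit. The share of all genes without that limit was not computed, so nothing is read from these counts. With replicate number as a block the medians were -2.12, -4.19 and 1.74, and it changed 1 call, Trp53 in TKO. An unpaired t-test per probe called 9 of 9 genes in J1, before and after adjustment. Of all 27126 probes tested, 14112 and 12215 had a p of at most 0.05 by that test.

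Over the alternatives the calls of named genes outside the set changed in 38 of 1743 values, 16 of them of Trp53 in TKO, and none reversed. Uhrf1 in TKO (0.92 to 1.00) and Lmx1a in J1 (-0.93) also came under 2-fold. Signal over background leaves only bounds for 9 of 14 probes in TKO-2i.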
